A study of Mus musculus with 14 samples.

Results

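Wnt signalling genes were examined across 14 two-colour arrays of mouse fetal RNA. The members were all probes whose gene symbol in the platform annotation is a Wnt ligand, a Frizzled receptor (Fzd), a secreted frizzled-related protein (Sfrp), a Dickkopf (Dkk) or a Dishevelled (Dvl), together with Frzb, Wif1, Lrp5, Lrp6, Axin1, Axin2, Apc, Ctnnb1, Lef1 and Tcf7. This gave 49 of 21582 probes, for 46 of the 15094 genes named. They were 18 ligand probes, 11 receptor probes, 10 probes of secreted inhibitors, 9 of cytoplasmic components and 1 of a nuclear factor. Apc had 3 probes and Sfrp1 had 2, and Tcf7 had none that was named.

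In the alcohol-fed group (n = 7 arrays), pregnant C57Bl6 mice were exposed to ethanol at about 180 to 200 mg/dl from gestational day 15 to 18, which the protocol counts as 4 days and the sample titles as 5. In the pair-fed group (n = 7 arrays), they received maltose dextrin over the same days. Per the labels' protocols, both groups had free access to food and water before that. Ethanol-exposed fetuses were taken by caesarean section on day 19. Day 19 is listed for the pair-fed samples too, and the labels name no organ or tissue. Every array set 1 sample, labelled with Cy5, against a single Cy3-labelled pool of RNA from 7 freely fed (ad libitum) animals, which is the only untreated control here. The ratio is taken as sample over pool, which the channel order makes likely but no label states. If it runs the other way, every sign below turns. Whether the samples within a group are separate litters is not stated, so the p-values reflect sample-to-sample spread that may be technical.

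Wnt proteins are secreted lipid-modified ligands that bind a Frizzled receptor together with the co-receptor Lrp5 or Lrp6. In the canonical branch this recruits Dishevelled and Axin, stops the Apc and Axin complex from marking beta-catenin (Ctnnb1) for breakdown, and lets beta-catenin act with Lef1 and Tcf7 on target genes. Sfrp proteins, Frzb and Wif1 bind Wnts outside the cell, whereas Dkk1 binds the Lrp co-receptors. In the fetus the pathway patterns the axis, limbs, brain, kidney, skin and skeleton.

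Values are log2 ratios to the pool with each array's median set to 0, and errors are limma standard errors unless stated. A member passed where the limma Benjamini-Hochberg adjusted p over all 20876 probes tested was under 0.05. Of the 49 member probes 48 were tested, and 38 had a value on every array. The exception was Dkk3, whose function in Wnt signalling is less settled than that of Dkk1. It had values on 4 alcohol-fed arrays, 0.64, -4.35, -1.68 and -2.85, and on 3 pair-fed arrays, 0.04, 1.52 and 4.11. Arrays differed in their medians before centring, from -0.62 to 0.68, and in the share of values read as missing, from 2.57% to 14.6%. The highest medians were those of replicates 2 and 3 among alcohol-fed arrays and of replicate 2 among pair-fed arrays, and pair-fed arrays 6 and 7 the most missing values. In RNA of mixed cells, fewer cells of a type and less RNA per cell cannot be told apart.

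**Figure D1:**
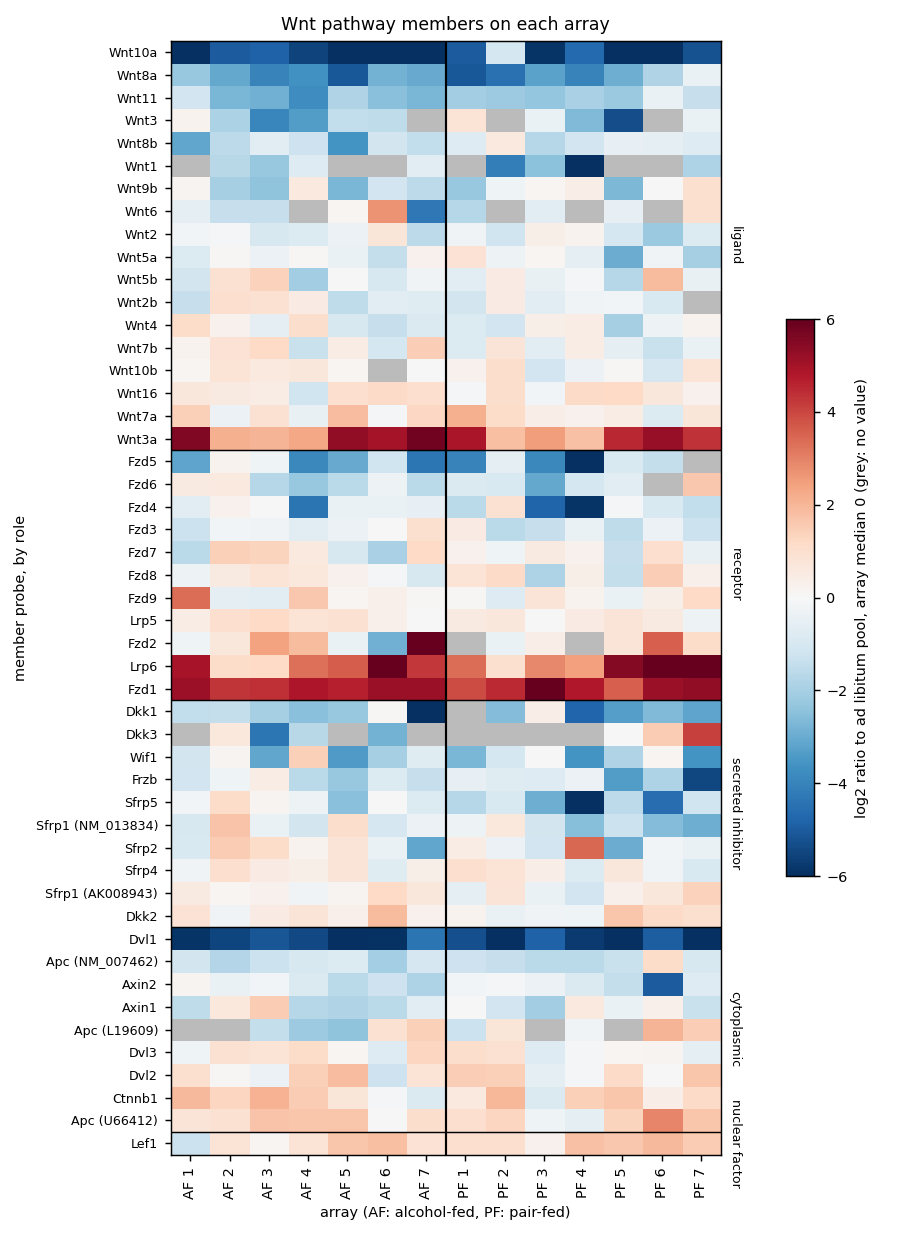
Each row is a member probe, grouped by role, and each column an array, alcohol-fed (AF) left of pair-fed (PF). Colour gives the log2 ratio to the ad libitum pool with the array median at 0, from blue at -6 to red at 6, and grey marks no value. Wnt10a and Dvl1 are blue and Fzd1 is red on all 14 arrays.

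The first question was whether ethanol shifted Wnt genes relative to the matched sugar diet, a comparison in which the pool cancels. No ligand, receptor, inhibitor or intracellular member passed: limma called 0 of 48 member probes, beside 0 of 20876 probes in all (0%). At an unadjusted limma p under 0.05 there were 4 member probes of 48, or 8.33%, where 4.22% of all probes reached it. In none of the 48 did the ranges of the groups separate, as they did for 24 probes (0.115%) in the whole table. All 48 had a limma adjusted p of at least 0.9996.

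The smallest p belonged to Sfrp5, a secreted Wnt-binding inhibitor. On alcohol-fed arrays it ran from -2.52 through a median of -0.17 to 1.09, and on pair-fed arrays from -6.10 through -1.71 to -0.93. The pair-fed arrays lay lower on the whole, but the ranges overlapped. The log2 difference, alcohol-fed minus pair-fed, was 2.34 ± 0.75, with a 95% interval of 0.76 to 3.92 and an unadjusted limma p of 0.00597. The second Wnt-binding inhibitor among the 4, Sfrp1, had a difference of 1.30 ± 0.61 at probe NM_013834 and 0.25 ± 0.42 at probe AK008943, so its probes differed in size.

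Wnt1, a ligand best known for its part in forming the midbrain, had values on 4 arrays of each group. They were -1.68, -2.28, -0.79 and -0.69 on alcohol-fed arrays and -4.13, -2.45, -8.47 and -1.86 on pair-fed arrays. The ranges overlapped, and pair-fed array 4 alone lay below -8. The log2 difference was 2.86 ± 1.19 (interval 0.26 to 5.46). Wnt8b, a ligand of the developing forebrain, went the other way. Its values ran from -3.59 through -1.45 to -0.67 on alcohol-fed arrays and from -1.72 through -0.75 to 0.60 on pair-fed arrays, a difference of -1.12 ± 0.50 (interval -2.17 to -0.08).

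Next by p came Wnt11, a ligand of the beta-catenin-independent branch with a known part in kidney branching and heart formation. Its log2 difference was -0.72 ± 0.44. Apc, the scaffold of the beta-catenin destruction complex, stood at -1.29 ± 0.85 on probe L19609, at -0.27 ± 0.44 on NM_007462 and at 0.06 ± 0.50 on U66412. The receptor Fzd3, needed for axon guidance, stood at 0.61 ± 0.43 and the nuclear partner of beta-catenin Lef1 at -0.62 ± 0.47. The ligand Wnt10a, which acts in hair and tooth development, was at -0.91 ± 0.72 and Wnt7b, a ligand of lung and placenta, at 0.63 ± 0.50. Each of these 6 spans 0 within its interval.

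By role, the estimates of the 9 secreted inhibitor probes tested were all above 0, from 0.05 (Sfrp2) to 2.34 (Sfrp5), with a median of 0.46 against 0.01 over all probes. The tenth inhibitor probe, Dkk3, went the other way, with means of -2.06 on 4 alcohol-fed and 1.89 on 3 pair-fed arrays, and had too few values to be tested. None of the 9 passed, and 51.1% of all probes had an estimate above 0. Ligands split evenly, with 9 above and 9 below 0 and a median of -0.02. Receptors had 7 above and 4 below, and cytoplasmic members 5 above and 4 below. The pair-fed values of the inhibitors, given below, are part of the same difference and add nothing to it.

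These intervals were wide. Over members the median half-width of the 95% interval was 1.16 (log2). A 2-fold difference lay outside it for 4 of 48 members (8.33%, against 8.84% of all probes). A 4-fold difference was excluded for 31 of 48 members (64.6%, against 76.8%). Dvl1, with a difference of 0.17 ± 0.39 (interval -0.65 to 0.99), and Fzd1, with 0.05 ± 0.41 (interval -0.80 to 0.91), were among those that excluded 2-fold. Lrp6, at -0.27 ± 0.96 (interval -2.29 to 1.75), excluded neither.

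**Figure D2:**
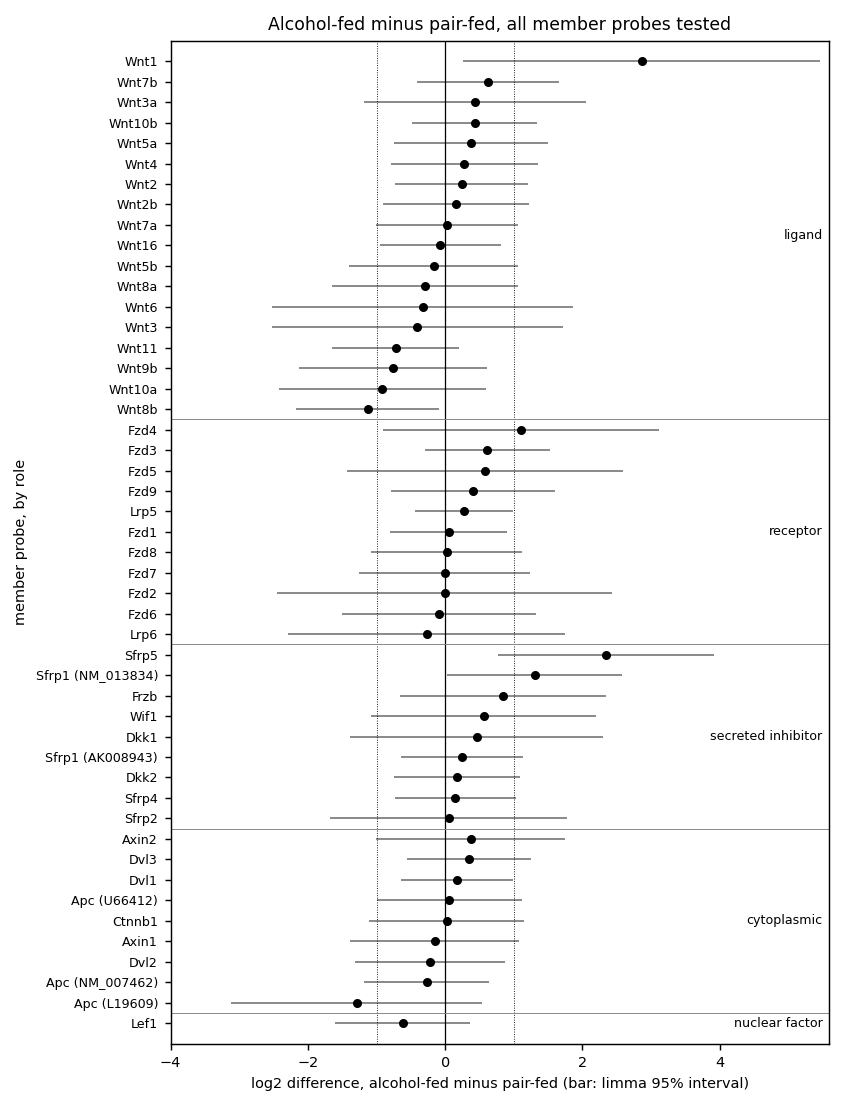
Points are log2 differences, alcohol-fed minus pair-fed, for the 48 member probes tested, grouped by role, bars are limma 95% intervals and dotted lines mark 2-fold. The 9 secreted inhibitor probes tested lie right of 0, from 0.05 to 2.34, and ligands lie on both sides; Dkk3, not tested and not drawn, has its alcohol-fed mean (-2.06) below its pair-fed mean (1.89).

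The second question was how each diet group stood against freely fed controls, where the pool counts as 1 control sample and its own variation does not enter the test. Both groups were set against the same pool, so their values are given side by side. No array had reversed dyes, and a dye effect cannot be told apart from a difference to the pool. In the alcohol-fed group 15 of 48 member probes passed (31.2%, where limma called 23.5% of all probes), 5 higher (8.02% of all probes) and 10 lower (15.5%). In the pair-fed group 18 of 48 passed (37.5%, against 21.3%), 5 higher (against 7.86%) and 13 lower (against 13.5%). Changes of at least 4-fold were called for 9 members (18.8%, against 7.11% of all probes) in the alcohol-fed and 10 (20.8%, against 6.16%) in the pair-fed group. With array medians not subtracted, 13 members passed in the alcohol-fed group (4 higher, 9 lower) and 15 in the pair-fed group (5 higher, 10 lower); of all calls 44.2% and 47.5% were then higher, against 34.1% and 36.9%. After quantile normalization the counts were 15 (6 higher, 9 lower) and 17 (5 higher, 12 lower), and 48.7% and 48.4% of all calls were higher. The median member stood at -0.26 and -0.45 in the alcohol-fed and the pair-fed group, where all probes had medians of 0.01 and -0.03.

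Among 18 ligands tested, 1 rose (5.56%, against 8.02% of all probes) and 6 fell (33.3%, against 15.5%) in the alcohol-fed group. In the pair-fed group 1 rose (5.56%, against 7.86%) and 4 fell (22.2%, against 13.5%). Wnt10a was the lowest member in alcohol-fed fetuses. Its values ran from -7.16 through -6.32 to -4.85 on alcohol-fed arrays and from -6.84 through -5.21 to -1.06 on pair-fed arrays. All 14 lay below the pool, and pair-fed array 2 stood far above the others. The group means were -5.97 ± 0.51 (limma adjusted p 1.44e-07) and -5.06 ± 0.51 (limma adjusted p 1.29e-06). Its close relative Wnt10b, known for its part in bone and hair growth, had means of 0.39 ± 0.32 and -0.04 ± 0.29 and did not pass.

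Wnt8a, a ligand of the early embryo's posterior body, fell as well. It ran from -5.07 through -3.08 to -2.29 on alcohol-fed arrays and from -5.08 through -3.22 to -0.40 on pair-fed arrays. Every array was below the pool, and the means were -3.42 ± 0.45 and -3.13 ± 0.45. Wnt11 ran from -3.73 through -2.73 to -1.17 on alcohol-fed arrays and from -2.30 through -2.08 to -0.38 on pair-fed arrays. It too was below the pool on all 14 arrays, with means of -2.50 ± 0.31 and -1.79 ± 0.31 (limma adjusted p 1.57e-05 and 0.000619).

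Wnt3a, a canonical ligand that maintains the mesoderm of the growing tail, was the single ligand that rose. Its values ran from 2.05 through 4.97 to 5.78 on alcohol-fed arrays and from 1.77 through 4.32 to 5.22 on pair-fed arrays, with means of 4.02 ± 0.54 and 3.58 ± 0.54. These values formed 2 bands: 6 arrays, replicates 2, 3 and 4 of both groups, lay between 1.77 and 2.50, and the other 8 between 4.32 and 5.78. No array lay between the bands. The means thus describe neither band.

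The remaining ligand calls were weaker. Wnt3, needed for gastrulation and limb outgrowth, ran from -3.94 through -1.71 to 0.20 on 6 alcohol-fed arrays and had the values 0.81, -0.39, -2.67, -5.34 and -0.38 on 5 pair-fed arrays. It passed in the alcohol-fed group (-1.997 ± 0.67, limma adjusted p 0.0434), not in the pair-fed group (-1.59 ± 0.73), and the alcohol-fed call ended without any of alcohol-fed arrays 2 to 6 (adjusted p up to 0.129), with array medians not subtracted (0.0538), with the replicate number as a block (0.0794) and without the 3 arrays with the highest medians (0.210). Wnt8b passed in the alcohol-fed group (-1.82 ± 0.35) and stood at -0.69 ± 0.35 in the pair-fed group. Wnt9b, the inducer of kidney tubules, passed in the alcohol-fed group at -1.30 ± 0.46 against -0.54 ± 0.46 in the pair-fed group. Its call ended without alcohol-fed array 2, 3, 5, 6 or 7 or pair-fed array 2, 3 or 4 (limma adjusted p up to 0.132), after quantile normalization (0.0560), with probes of fewer values included (0.0523) and without the 3 arrays with the highest medians (0.259). Wnt1 stood at -1.36 ± 0.84 in the alcohol-fed group and passed in the pair-fed group (-4.23 ± 0.84). That mean rests on the 4 values above and was -2.51 with values read as missing kept. The difference between the groups passed for none of these 4 ligands. The other 10 ligands, among them Wnt5a, a ligand of limb and gut outgrowth, and Wnt4, which acts in kidney and gonad, had means between -0.79 and 0.64 in the alcohol-fed and between -0.75 and 0.62 in the pair-fed group.

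**Figure D3:**
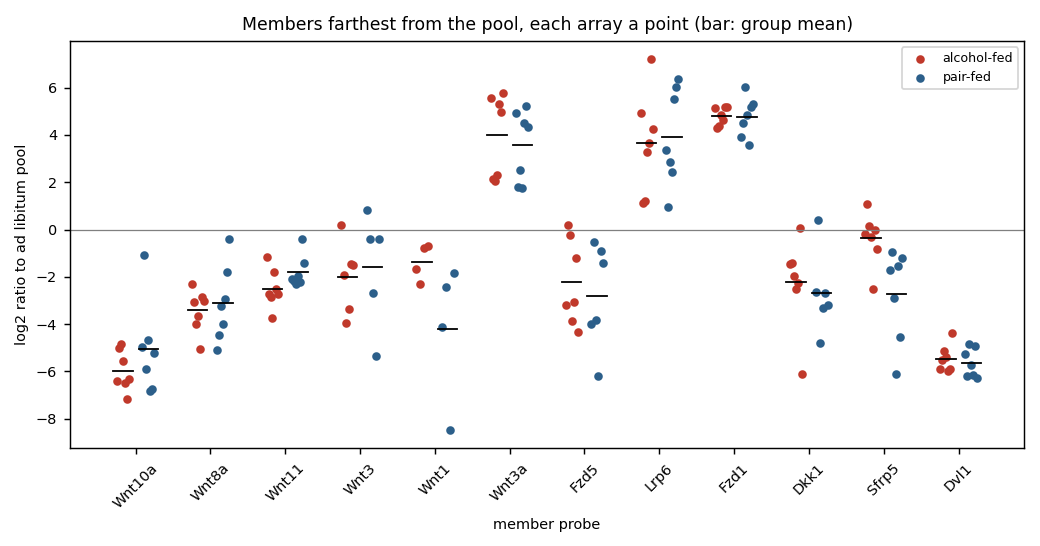
Points are single arrays and bars group means of the log2 ratio to the ad libitum pool, for the 10 members past the threshold farthest from the pool in each group, alcohol-fed (red) left of pair-fed (blue). Wnt3a falls in 2 bands in both groups, and 1 pair-fed array of Wnt10a, at -1.06, lies above the rest.

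Of 11 receptors, 3 rose (27.3%, against 8.02% of all probes) and 1 fell (9.09%, against 15.5%) in the alcohol-fed group. In the pair-fed group 2 rose (18.2%, against 7.86%) and 2 fell (18.2%, against 13.5%). Fzd1, a receptor that binds Wnts at the cell surface, ran from 4.30 through 4.84 to 5.20 on alcohol-fed arrays and from 3.59 through 4.83 to 6.01 on pair-fed arrays. All 14 arrays were above the pool and the groups overlapped. The means were 4.82 ± 0.29 and 4.76 ± 0.29 (limma adjusted p 1.38e-09 and 1.30e-09). The spread between arrays of a group was 0.65 (SD), lower than for most probes, whose median was 0.96.

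Lrp6, the co-receptor that carries the canonical signal, rose with far more spread (SD 2.09). It ran from 1.11 through 3.65 to 7.20 on alcohol-fed arrays and from 0.97 through 3.35 to 6.35 on pair-fed arrays, with means of 3.67 ± 0.68 and 3.94 ± 0.68 (limma adjusted p 0.00101 and 0.000564). Every array was above the pool. The 6 arrays of the lower Wnt3a band were also the 6 lowest for Lrp6 (0.97 to 3.29, against 3.35 to 7.20 on the other 8). On the 3 arrays with the highest medians, Lrp6 lay between 0.97 and 1.22, against 2.44 to 7.20 on the other 11. Lrp5, the paralogous co-receptor with a known part in bone mass, stood at 0.68 ± 0.24 in the alcohol-fed and 0.40 ± 0.24 in the pair-fed group. The alcohol-fed value passed (limma adjusted p 0.0486), a call that ended in 11 of 14 fits without 1 array (adjusted p up to 0.125): those without alcohol-fed array 1, 2, 3, 4, 5 or 6 or pair-fed array 1, 2, 3, 4 or 5. It ended too with array medians not subtracted (0.0828), with values read as missing kept (0.0690), with only the alcohol-fed arrays in the fit (0.0743), with the replicate number as a block (0.0797) and without the 3 arrays with the highest medians (0.256).

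Fzd5, a receptor needed in the yolk sac, eye and gut, fell in both groups. It ran from -4.32 through -3.04 to 0.21 on alcohol-fed arrays and from -6.20 through -2.63 to -0.53 on 6 pair-fed arrays, with means of -2.23 ± 0.65 and -2.81 ± 0.70. The alcohol-fed call ended without alcohol-fed array 1, 4, 5 or 7 (limma adjusted p up to 0.0635). Fzd4, the receptor for norrin in retinal vessels, stood at -0.88 ± 0.68 in the alcohol-fed group and passed as lower in the pair-fed group (-1.98 ± 0.68, limma adjusted p 0.0443). That call ended without alcohol-fed array 1, 3, 5 or 7 or pair-fed array 1, 3, 4 or 7 (adjusted p up to 0.149), and without pair-fed arrays 6 and 7 together (0.0671). It ended too with array medians not subtracted (0.0810), after quantile normalization (0.0579), with values read as missing kept (0.05002), with array weights (0.0518) and with only the pair-fed arrays in the fit (0.0902). The other 6 receptors, Fzd2, Fzd3, Fzd6, Fzd7, Fzd8 and Fzd9, did not pass in either group. Their means lay between -0.91 and 1.08 in the alcohol-fed and between -0.86 and 1.09 in the pair-fed group.

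On the 3 arrays with the highest medians, 4 of 45 members with values there did not overlap the other 11 arrays (8.89%, against 2.71% of 20018 probes), and all 4 were receptors. Fzd5 lay between -0.53 and 0.21 on the 3 arrays and between -6.20 and -0.90 on the 10 others with a value. Fzd4 lay between -0.01 and 0.89, against -5.91 to -0.07. Fzd9 lay between -0.77 and -0.58, against -0.38 to 3.37, and Lrp6 is given above. On the next 3 by median, alcohol-fed array 5 and pair-fed arrays 5 and 1, Lrp6 was 3.65, 5.53 and 3.35. Fzd5 was -3.04, -0.90 and -3.996 there, and on the arrays below them ran from -6.20 to -1.19. Lrp6 was 2.44, 2.86 and 3.29 on pair-fed arrays 4 and 3 and alcohol-fed array 4, which come next. On the arrays with the lowest medians, alcohol-fed 7, 6 and 1 and pair-fed 6 and 7, Lrp6 ran from 4.26 to 7.20. Lrp6 was thus mostly higher where the median was lowest, with pair-fed array 5 within that range. The 3 arrays with the highest medians hold both diet groups, and the part of their higher medians in these values was not tested. Without these arrays the Lrp6 means were 4.67 in the alcohol-fed and 4.43 in the pair-fed group, those of Fzd5 -3.12 and -3.27, and both passed in both groups.

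**Figure D4:**
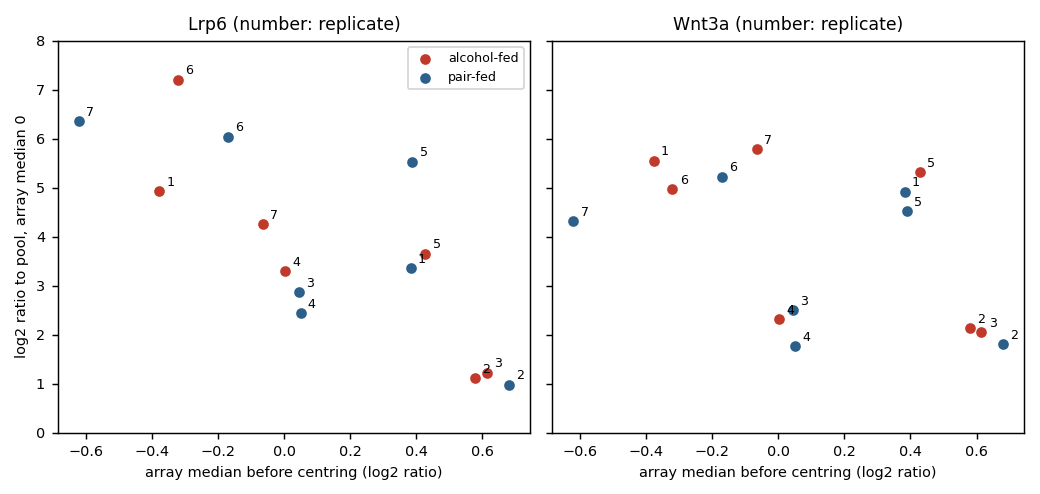
Each point is an array, alcohol-fed in red and pair-fed in blue, with its replicate number; the horizontal axis is the array's median log2 ratio before centring and the vertical axis the centred log2 ratio to the pool of Lrp6 (left) and Wnt3a (right). Lrp6 is lowest, 0.97 to 1.22, on the 3 arrays with the highest medians, and Wnt3a lies below 2.50 on replicates 2, 3 and 4 of both groups.

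Among secreted inhibitors, 0 of 9 rose (against 8.02% of all probes) and 1 fell (11.1%, against 15.5%) in the alcohol-fed group. In the pair-fed group 0 rose (against 7.86%) and 5 fell (55.6%, against 13.5%). Dkk1, the Lrp-binding inhibitor needed for head formation, was called in both. It ran from -6.09 through -1.98 to 0.08 on alcohol-fed arrays and from -4.78 through -2.93 to 0.41 on 6 pair-fed arrays, with means of -2.23 ± 0.59 and -2.69 ± 0.64 (limma adjusted p 0.0132 and 0.0076). In each group all arrays but 1 were below the pool. Sfrp5 passed in the pair-fed group alone, at -0.37 ± 0.53 in the alcohol-fed and -2.71 ± 0.53 in the pair-fed group (limma adjusted p 0.00171). The difference itself did not pass, as given above.

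Frzb, which binds Wnts in cartilage, Wif1 and Sfrp1 also passed in the pair-fed group. Frzb had means of -1.01 ± 0.51 in the alcohol-fed and -1.85 ± 0.51 in the pair-fed group, and Wif1 of -1.25 ± 0.55 and -1.81 ± 0.55. Sfrp1 stood at -0.15 ± 0.43 and -1.45 ± 0.43 on probe NM_013834, and at 0.40 ± 0.30 and 0.15 ± 0.30 on probe AK008943, which did not pass. The Frzb call ended without pair-fed array 5, the Wif1 call without pair-fed array 1, 4, 5 or 7 and the Sfrp1 call without pair-fed array 4, 6 or 7 (limma adjusted p up to 0.0854). All 3 calls also ended without pair-fed arrays 6 and 7, where missing values were most frequent (adjusted p 0.0925 for Frzb, 0.0531 for Wif1 and 0.184 for Sfrp1). With only the pair-fed arrays in the fit the Frzb (0.0572) and Sfrp1 (0.0521) calls ended, and with the replicate number as a block the Wif1 call (0.0583). The Sfrp1 call ended too with array medians not subtracted (0.0886), with array weights (0.0593) and with its probes averaged, where the mean was -0.65 (0.108). Dkk2, Sfrp2 and Sfrp4 had means between -0.12 and 0.62 in the alcohol-fed and between -0.17 and 0.45 in the pair-fed group.

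Of the cytoplasmic members, Dvl1 fell farthest. It ran from -6.001 through -5.50 to -4.38 on alcohol-fed arrays and from -6.29 through -5.72 to -4.84 on pair-fed arrays. Every array was more than 4 below the pool on the log2 scale. The means were -5.46 ± 0.28 and -5.63 ± 0.28 (limma adjusted p 2.40e-10 and 1.11e-10). The other Dishevelled genes, which share its role of relaying the receptor signal, did not pass: Dvl2 stood at 0.50 ± 0.37 in the alcohol-fed and 0.72 ± 0.37 in the pair-fed group, and Dvl3 at 0.46 ± 0.30 and 0.12 ± 0.30.

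The probes of Apc disagreed. NM_007462 passed as lower, at -1.28 ± 0.31 in the alcohol-fed and -1.01 ± 0.31 in the pair-fed group. U66412 passed as higher, at 1.12 ± 0.36 and 1.06 ± 0.36, and L19609 did not pass, at -0.73 ± 0.60 and 0.56 ± 0.60. The lower call held without any 1 array in the alcohol-fed group and ended without pair-fed array 1, 2, 3, 4 or 5 in the pair-fed group (limma adjusted p up to 0.0744). The higher call ended without alcohol-fed array 2, 3, 4, 5 or 7 in the alcohol-fed group (up to 0.0798), and without alcohol-fed array 2 or 7 or pair-fed array 1, 2, 5, 6 or 7 in the pair-fed group (up to 0.122). Without the 3 arrays with the highest medians both calls ended in both groups (from 0.0572 to 0.1302), and with the 3 probes averaged the gene did not pass, at -0.26 and 0.10. In the pair-fed group both ended with the replicate number as a block (0.0616 and 0.0890) and with only the pair-fed arrays in the fit (0.0848 and 0.104). There the lower call ended with array medians not subtracted (0.0585), and the higher one with array weights (0.0646) and without pair-fed arrays 6 and 7 (0.290); in the alcohol-fed group the higher call ended with the block (0.0718). No direction for the gene follows from these.

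Beta-catenin itself, Ctnnb1, stood at 0.94 ± 0.38 in the alcohol-fed and 0.91 ± 0.38 in the pair-fed group (limma adjusted p 0.0807 and 0.0927). Axin1, a scaffold of the destruction complex, was at -0.74 ± 0.41 and -0.59 ± 0.41. Axin2, the negative regulator often read as a target of the pathway, was at -0.87 ± 0.46 and -1.24 ± 0.46 (limma adjusted p 0.174 and 0.0633). None of these 3 passed. Lef1 ran from -1.27 through 0.80 to 1.82 on alcohol-fed arrays and from 0.27 through 1.52 to 1.95 on pair-fed arrays. It stood at 0.69 ± 0.33 in the alcohol-fed group and rose in the pair-fed group (1.31 ± 0.33, limma adjusted p 0.01), where every array was above the pool. Without pair-fed arrays 6 and 7 it was 1.14 and no longer passed (limma adjusted p 0.0607).

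**Figure D5:**
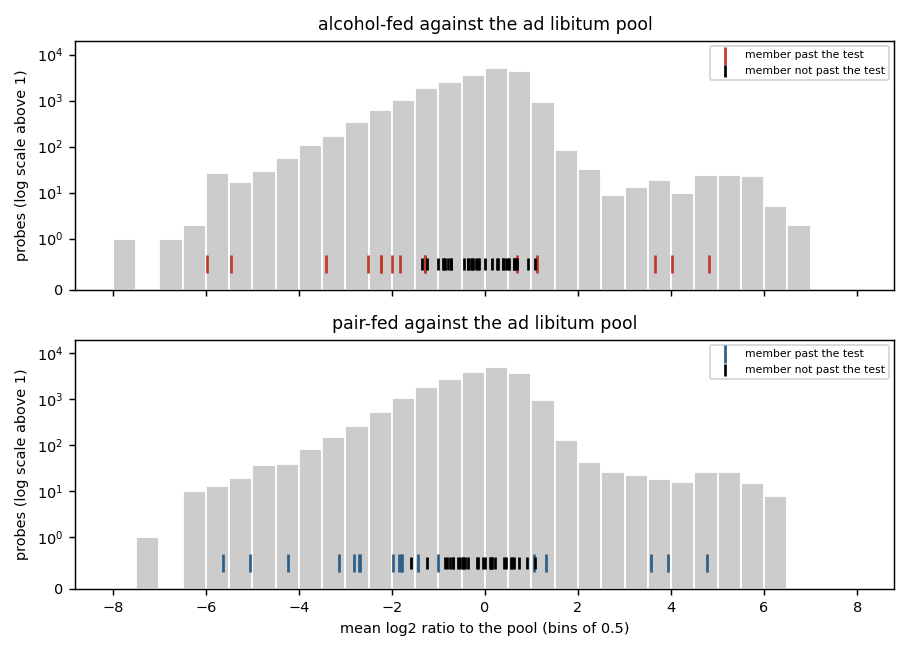
Grey bars count all probes tested by mean log2 ratio to the pool in bins of 0.5, on a log axis above 1, for the alcohol-fed (top) and the pair-fed group (bottom), and ticks mark member probes, coloured where they passed. Fzd1, Wnt3a and Lrp6 are the 3 members at 3.5 or more, where 107 and 111 of 20876 probes lie.

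Promoter sequences show what surrounds the start of the genes farthest from the pool. Members that passed at 4-fold or more in both groups were Dvl1, Dkk1, Fzd5, Wnt3a and Fzd1, printed here, and Wnt10a, Wnt8a and Lrp6, which are named only. Each line gives the 250 bases before the start from RefSeq, build GRCm38.p6, read 5′ to 3′ on the gene's strand. Capitals mark the letters TCAAAG or their reverse complement CTTTGA, the core recognised by Lef1 and its relatives.
Dvl1 (chr4:155847152-155847401, plus strand): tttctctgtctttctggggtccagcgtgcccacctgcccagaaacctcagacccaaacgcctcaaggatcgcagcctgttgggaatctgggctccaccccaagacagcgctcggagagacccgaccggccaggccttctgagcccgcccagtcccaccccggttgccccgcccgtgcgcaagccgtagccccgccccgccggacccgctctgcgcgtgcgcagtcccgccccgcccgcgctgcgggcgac
Dkk1 (chr19:30549497-30549746, minus strand): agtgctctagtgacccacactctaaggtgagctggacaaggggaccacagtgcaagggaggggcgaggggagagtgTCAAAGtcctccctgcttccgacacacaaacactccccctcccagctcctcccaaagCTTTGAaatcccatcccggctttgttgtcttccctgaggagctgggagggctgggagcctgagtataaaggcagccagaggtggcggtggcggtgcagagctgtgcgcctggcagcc
Fzd5 (chr1:64737751-64738000, minus strand): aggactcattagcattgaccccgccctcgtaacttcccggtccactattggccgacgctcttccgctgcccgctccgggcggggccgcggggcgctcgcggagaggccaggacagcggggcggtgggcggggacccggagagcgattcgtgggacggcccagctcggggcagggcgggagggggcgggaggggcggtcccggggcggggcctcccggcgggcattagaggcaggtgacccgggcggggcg
Wnt3a (chr11:59290752-59291001, minus strand): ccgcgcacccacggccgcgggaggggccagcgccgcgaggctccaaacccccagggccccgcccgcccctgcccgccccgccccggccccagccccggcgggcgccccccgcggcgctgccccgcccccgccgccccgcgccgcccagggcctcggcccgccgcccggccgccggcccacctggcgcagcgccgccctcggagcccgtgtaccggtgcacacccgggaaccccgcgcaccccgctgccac
Fzd1 (chr5:4758217-4758466, minus strand): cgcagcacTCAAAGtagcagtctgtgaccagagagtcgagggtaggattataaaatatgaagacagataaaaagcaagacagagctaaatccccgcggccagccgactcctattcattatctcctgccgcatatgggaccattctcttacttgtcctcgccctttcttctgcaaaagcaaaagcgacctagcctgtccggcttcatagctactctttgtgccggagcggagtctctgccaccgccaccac

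Dkk1 held the core 2 times, starting 174 and 117 bases before the start, and Fzd1 once, 242 bases before it. The Dvl1, Fzd5 and Wnt3a windows held no match, which says only that these letters are not in these windows. The core lay in 6 of 38 promoters of the 31 member genes that matched the table (15.8%) and in 4544 of 32851 promoters in all (13.8%). The Wnt3a window was 87.6% G and C and that of Fzd1 51.2%. Whether composition goes with the change against the pool was not tested.

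Pathway genes outside the members were read from lists of parts and targets. Between alcohol-fed and pair-fed fetuses, limma called 0 probes in any of them. Of 33 probes for beta-catenin targets, 0 rose and 6 fell in the alcohol-fed group, and 1 rose and 9 fell in the pair-fed group, with medians of -0.26 and -0.49. Falls included the caudal homeobox gene Cdx4 (-2.50 ± 0.30 in the alcohol-fed and -2.27 ± 0.30 in the pair-fed group), the growth factor genes Fgf20 (-1.83 ± 0.28 and -1.90 ± 0.28) and Fgf4 (-1.37 ± 0.35 and -1.80 ± 0.35), and the Notch ligand Jag1 (-1.60 ± 0.47 and -2.83 ± 0.51). The list was chosen by name as textbook targets, and several members respond to other pathways too.

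Of 22 probes for other extracellular and membrane components, 0 rose and 4 fell in the alcohol-fed group, and 1 rose and 3 fell in the pair-fed group. The stem cell receptor Lgr5, which binds R-spondins and is also on the target list, fell (-1.53 ± 0.36 in the alcohol-fed and -3.38 ± 0.45 in the pair-fed group). Its ligand gene Rspo4, needed for nail growth, stood at -1.64 ± 0.55 and -3.14 ± 0.55. Gpc4, a cell surface proteoglycan, had 1 probe at -5.03 ± 0.36 and -5.90 ± 0.36 and another at 0.36 and 1.23, the second of these a rise in the pair-fed group, so its probes disagree. Of 23 cytoplasmic probes, 1 rose and 2 fell in the alcohol-fed and 2 rose and 3 fell in the pair-fed group. The tankyrase Tnks2, which turns over Axin, fell in both (-2.19 ± 0.42 and -1.96 ± 0.45). Cby1 stood at 0.99 in the alcohol-fed group and rose in the pair-fed group (1.47 ± 0.36). Gsk3b stood at -0.47 and passed as lower in the pair-fed group at probe NM_019827 (-1.60 ± 0.42). Its other probes were at -0.37 and 0.67 in the alcohol-fed and -0.04 and -0.42 in the pair-fed group. Csnk2a1 fell in both at probe NM_007787 (-1.50 ± 0.52 and -1.66 ± 0.44), with its other probe at -0.04 and -0.004. Of 19 nuclear probes, 1 rose and 1 fell in the alcohol-fed and 1 rose and 3 fell in the pair-fed group. Tcf7l2, a partner of beta-catenin, rose at probe NM_009333 (1.08 ± 0.29 and 1.34 ± 0.29), with its other probe at 0.21 and 0.41, and the co-activator gene Pygo2 fell (-3.46 ± 0.76 and -3.08 ± 0.68). Of 23 probes for the polarity and calcium branches, 3 rose and 4 fell in the alcohol-fed and 2 rose and 2 fell in the pair-fed group, among them rises of the small GTPase gene Rhoa (1.42 ± 0.27 and 1.33 ± 0.27) and the polarity gene Vangl2 (0.91 ± 0.26 in each). Nfatc1, a calcium-regulated transcription factor, passed as lower in the alcohol-fed group (-2.61 ± 0.69) and stood at -0.84 in the pair-fed group. Daam1, a formin bound by Dishevelled, did so at 1 probe (-2.34 ± 0.58 and -0.52), with its other probe at 0.48 and 0.46. The shares called in all probes, 8.02% higher and 15.5% lower in the alcohol-fed and 7.86% and 13.5% in the pair-fed group, are the yardstick for these counts.

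Markers of 7 cell types, hepatocyte, neuron, skeletal muscle, epidermis, cartilage and bone, erythroid and endothelium, were read beside the members. Between the diet groups 0 of 50 marker probes were called, with list medians from -0.31 to 0.26. Against the pool 3 of the 50 rose and 11 fell in the alcohol-fed group, and 5 rose and 12 fell in the pair-fed group. Of all probes, 8.02% were called higher and 15.5% lower in the alcohol-fed group, and 7.86% and 13.5% in the pair-fed group. The marker list medians ran from -0.82 to 0.49 and from -0.84 to 0.60. The embryonic globin gene Hbb-bh1 stood at -1.68 in the alcohol-fed group and fell in the pair-fed group (-4.38 ± 0.75). In skeletal muscle the transcription factor gene Myog (-3.61 ± 0.37 and -3.60 ± 0.37), the troponin gene Tnnc2 (-2.64 ± 0.29 and -2.32 ± 0.29) and the actin gene Acta1 (-2.03 ± 0.33 and -2.04 ± 0.33) fell in both groups. The calcium channel gene Ryr1, which holds 7 of the 12 muscle probes, stood at 5.91 ± 0.54 and 4.60 ± 0.54 on probe D21797. Its other 6 probes lay between -0.05 and 0.94 and between -0.68 and 0.77. Of these, X78666 also passed as higher in both groups (0.73 and 0.77). The remaining muscle genes tested had no call. Over all 12 muscle probes the medians were 0.49 in the alcohol-fed and 0.30 in the pair-fed group. The part of these markers in the member values was not tested.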

How the data were processed

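Fetal RNA was measured on 14 two-colour arrays, 7 alcohol-fed and 7 pair-fed, each against the same ad libitum pool. Per the labels' protocols, total RNA was extracted with a kit from Ambion and labelled with a Cy3/Cy5 kit from Genisphere. The authors deposited 1 log2 ratio per probe and array; the log2 scale is read from the values. Which steps read the images, removed background and normalized the ratios were not given in the sources used here; no signal column was used, so which spots lay above background is unknown. The number of arrays limits the precision.

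Values of exactly 0 and values at the table maximum of 16.61 were set to missing. Of the member values 31 were 0 and 0 were at the maximum. Each array was centred on its median. Tested were the probes with 4 or more values in both groups (20876, leaving out 706) with limma 3.58.1 in R 4.3.3, all arrays in 1 fit, two-sided, Benjamini-Hochberg over all probes. The fit was tested on simulated data with the spreads of the real probes and 200 probes changed in the alcohol-fed group. Between the groups it recovered 0% of these at 2-fold, 28.5% at 4-fold and 76% at 8-fold. For alcohol-fed against the pool the shares were 0%, 72% and 95%. The real comparison with the pool called 4913 probes, many more than the 200 changed here. With more calls the adjusted threshold admits larger unadjusted p, and Lrp5 passed there at 0.68, under 2-fold. The simulated shares against the pool therefore do not give the sensitivity of that comparison. Over all probes tested, deviations of same-numbered arrays correlated at -0.08 to 0.18, over 0.1 in 1 of 7 pairs. Wnt3a did split by replicate number, as given above, and no label says that the number pairs samples. Whether same-numbered arrays share a run or batch was not tested.

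Names are from the platform annotation (16635 probes with 1 symbol, 113 with several, 4834 with none). All 49 member probes matched RefSeq by gene number. The members and gene lists were chosen with earlier results of these data known. Given in full are the 10 members past the threshold farthest from 0 in each group, and the 10 smallest p between groups, with every other probe of those genes. At most 4 genes are named per pathway list. Alternatives covered centring, quantile normalization, missing values, array weights, robust variances, the arrays in the fit, the replicate number as a block, averaging the probes of a gene and leaving out arrays.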

Additional observations from a re-analysis of the deposited data

Results flagged for a closer look

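In 6 of 96 groups of member values, 1 array stood outside the range that Dixon's test allows at 95%; chance gives about 1 group in 20, or 4.8 here. Pair-fed array 6, the array with most missing values, held 2 of them: Apc probe NM_007462 at 1.09, the other pair-fed arrays lying between -1.60 and -0.97, and Axin2 at -5.01, the others between -1.43 and -0.08. Pair-fed array 2 held Wnt10a at -1.06, against -6.84 to -4.68 on the other pair-fed arrays. Alcohol-fed array 4 held Wnt16 at -1.20, against 0.43 to 1.14, and Fzd4 at -4.40, against -0.70 to 0.27. Alcohol-fed array 7 held Dkk1 at -6.09, against -2.52 to 0.08.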

How the results depend on the processing

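Between the groups 0 members were called under all 25 alternatives run. Against the pool, leaving out 1 array gave 10 to 16 member calls for alcohol-fed fetuses (3 to 5 higher, 7 to 11 lower) and 13 to 18 for pair-fed fetuses (4 to 6 higher, 8 to 13 lower), beside 15 (5 and 10) and 18 (5 and 13) as reported. In the same fits the share of all probes called ran from 17.3% to 25.6% and from 15.8% to 23.6%, against 23.5% and 21.3% as reported. The lowest values came without alcohol-fed array 5 (10 calls) and without pair-fed array 4 or 7 (13 calls). With the replicate block 3 members were called higher in alcohol-fed fetuses, though no label says that its numbers pair the samples. The block fit called 12 members in alcohol-fed and 16 in pair-fed fetuses in all. Of 14 arrays, 4 correlated best with their own number among the 7 arrays of the other group. The 2 arrays numbered 4 did so in both directions. This count was not tested against chance and does not settle whether the numbers pair samples. Without the 3 arrays with the highest medians, an alternative chosen after seeing the data, 3 were called higher in alcohol-fed fetuses, and the share of all probes called was 14.0%. Without pair-fed arrays 6 and 7, also chosen after seeing the data, 11 members were called in pair-fed fetuses, 3 higher and 8 lower, and the share of all probes called was 16.1%. Averaging the probes of Apc turned U66412 in alcohol-fed fetuses (-0.26) and NM_007462 in pair-fed fetuses (0.10), because the probes oppose each other. Of 1079 values of single members under the alternatives, 975 kept their direction and side of the threshold, 102 lost a call and 2 turned. The 975 include every value of the 10 members named between the groups, which had no call to lose. All 102 lost calls and both turns concern calls against the pool, so the total overstates how stable those calls were. Dvl1, Fzd1, Wnt10a, Wnt3a, Lrp6, Wnt8a, Wnt11 and Dkk1 passed in both groups under every alternative that tested them. Without subtracting array medians the median of all probes was 0.14 in alcohol-fed fetuses, against 0.01, and the share of calls that were higher was 44.2% against 34.1%; for members it was 4 of 13 against 5 of 15. The cause of these shifts was not tested.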
